A study of Homo sapiens with 4 samples.

Results

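The genes described here are 36 human genes of endoplasmic reticulum (ER) protein folding and of the unfolded protein response, followed in 786-O cells, an established line of clear cell renal cell carcinoma. They were matched by symbol to the gene names of the deposited loci, whatever their values, and each of the 36 was found in 1 of the 56753 loci. Of these loci, 32 name a single gene and 4 name several. PRDM16 cells had been stably transduced with a PRDM16 lentivirus and control cells with a control vector, and total RNA of each was sequenced as 2 libraries. Both groups are thus transduced derivatives of the same line under standard adherent culture, and no stress treatment is given in the labels, nor whether the transduced cells were a pool or a clone. The labels do not say whether the libraries of a group came from separate cultures, so the p-values speak only of the spread among these 4 libraries, and that spread may be technical.

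Proteins that enter the ER are folded there by chaperones and by enzymes that form disulfide bonds, and proteins that fail to fold are returned to the cytosol for degradation. When unfolded protein builds up, the membrane sensors ATF6, IRE1 (encoded by ERN1) and PERK (encoded by EIF2AK3) start the unfolded protein response. ATF6 and the spliced form of XBP1 switch on chaperone and degradation genes, while PERK slows translation and raises the transcription factor ATF4. Secretory cells and many carcinomas keep this machinery at a high level.

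PRDM16 itself was at 1226 and 1146 FPKM in the PRDM16 libraries, against 0.0157 and 0.234 FPKM in the control vector libraries (log2 change 10.05, SE 0.13, limma adjusted p = 0.000317). FPKM count sequenced fragments relative to transcript length and library size, so that levels can be compared between genes. Among values under 0.3 FPKM, the most frequent ratio between libraries put relative sequencing depth at 1.26 and 1.17 in the PRDM16 libraries, against 1 and 1.39 in the control vector libraries, and absolute depth is unknown. All 8 markers of the line passed the filter, among them PAX8, a renal lineage factor, at 190.3 and 169 FPKM with PRDM16 and 202 and 208 FPKM in the control vector. Others of these markers were less even: NDRG1, a hypoxia-induced gene, was at 360.3 and 338 FPKM with PRDM16 and 341 and 759 FPKM in the control vector, and CDH6, a cadherin gene in a locus of 2 names, at 52.0 and 58.4 FPKM with PRDM16 and 84.2 and 46.5 FPKM in the control vector. Markers of other cells summed to at most 0.307 FPKM per library for endothelial cells and hepatocytes. CD68, in a locus of 8 names, PDGFRA, in a locus of 4 names, COL1A1 and SDC1 were the only genes at a mean of 1 FPKM or more in the leukocyte, fibroblast and plasma cell lists. CD3E and DCN were listed at 0 in all 4 libraries. All 6 replication helicase genes, MCM2 to MCM7, were lowest in control vector replicate 2. They stood there at 0.433 to 0.551 times their level in control vector replicate 1. These genes were chosen with earlier results of these data known, so their order is a description. Of the 13246 loci that passed the filter, 38.7% were lowest in control vector replicate 2 and 33.9% were highest there.

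Promoter elements known from stress-induced ER genes are shown first, because several members share them and they do not depend on the values. The ER stress element is written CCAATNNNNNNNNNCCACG and binds NF-Y and ATF6, and the ER stress element II is ATTGG, then any base, then CCACG. Both strands were searched, for exact letters only, in RefSeq promoter windows (GRCh38.p14) of 250 bases before to 50 bases after a start. Windows were held for 31 of the 36 genes. An ER stress element was found for 7 of the 31 and an ER stress element II for a further 3. Over the whole table, 0.0916% of 27305 genes had a window with the first and 0.0696% with the second. The elements were first described in promoters of several of these genes, so this share is a description.

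The promoter of HSPA5 is given at length because this gene, which encodes the main ER chaperone BiP, carried one of the widest spreads between libraries. The 250 bases before its start lie at chr9:125241344-125241593 on the minus strand. The fixed letters of the exact match to the ER stress element are in capitals, from 66 to 48 bases before the start. Inexact copies were not searched for and stay in lower case.
HSPA5: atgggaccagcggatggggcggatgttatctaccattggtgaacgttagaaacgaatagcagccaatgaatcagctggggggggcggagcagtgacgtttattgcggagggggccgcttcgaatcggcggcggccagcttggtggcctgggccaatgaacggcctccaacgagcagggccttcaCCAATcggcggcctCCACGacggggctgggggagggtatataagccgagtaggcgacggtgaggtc

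The elements of the other 9 genes are given with 12 bases on each side, again with their fixed letters in capitals. A match to the reverse strand reads CGTGG before ATTGG (first element) or before CCAAT (element II).
HSP90B1, chr12:103930204-103930246: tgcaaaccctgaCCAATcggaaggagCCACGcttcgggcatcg
HSP90B1, chr12:103930309-103930351: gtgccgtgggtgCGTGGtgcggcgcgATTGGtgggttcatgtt
CALR, chr19:12938372-12938414: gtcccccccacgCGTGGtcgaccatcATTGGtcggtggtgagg
CANX, chr5:179698766-179698808: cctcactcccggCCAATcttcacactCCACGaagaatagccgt
PDIA6, chr2:10812841-10812883: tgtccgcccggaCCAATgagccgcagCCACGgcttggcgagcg
CRELD2, chr22:49918542-49918584: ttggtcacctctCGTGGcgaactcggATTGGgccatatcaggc
XBP1, chr22:28800591-28800633: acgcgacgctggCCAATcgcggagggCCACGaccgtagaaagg
HERPUD1, chr16:56932013-56932047: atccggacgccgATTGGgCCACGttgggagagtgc
SDF2L1, chr22:21642102-21642136: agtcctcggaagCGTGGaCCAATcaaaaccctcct
HYOU1, chr11:119057262-119057296: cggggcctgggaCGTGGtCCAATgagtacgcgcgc
HYOU1, chr11:119057368-119057402: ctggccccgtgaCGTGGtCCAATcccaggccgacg
PDIA6, XBP1 and HYOU1 lie on the minus strand and the others on the plus strand. The core of the UPR element, TGACGTG, was in the windows of DNAJC10, SEC61A1 and HYOU1. These are 9.68% of the 31 members with a window, against 2.4% of all genes with a window. In HYOU1 the core overlaps an ER stress element II, and in SEC61A1 it spans the start.

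No member was called different between PRDM16 and control vector cells. The test was limma on log2(FPKM + 1) over the 13246 loci with a mean of at least 1 FPKM, with p adjusted by Benjamini-Hochberg over all of them at a threshold of 0.05. It called 0 of the 35 members tested, against 0.0226% of all tested loci, and 0 members reached 0.05 before adjustment, against 2.42% of all tested loci in the higher and 3.7% in the lower direction. Adjusted p ran from 0.689 to 0.988 over the members. Their log2 changes ran from -0.44 for SEL1L to 0.16 for SEC61B, with a median of -0.089 where that of all tested loci was 0.004. DERL3, a derlin gene, was listed at 0 in all 4 libraries and was not tested. RNF5 and ATF6B, among the other ER genes given below, were also at 0 in all 4 libraries. Whether a listed 0 means that the transcript is absent was not tested.

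The means leaned lower with PRDM16, and that lean turned round without a single control library. Of the 35 members, 27 had a lower mean log2 value in PRDM16 than in control vector cells, against 49.3% of all tested loci. Without control vector replicate 2, only 9 of 35 were lower, against 51% of all tested loci, and the median change was 0.063. Without control vector replicate 1 the median was -0.22. Of the 35, 4 had both PRDM16 values below both control vector values (11.4%, against 20.3% of all tested loci) and 3 had both above (8.6%, against 21.1%).

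**Figure D1:**
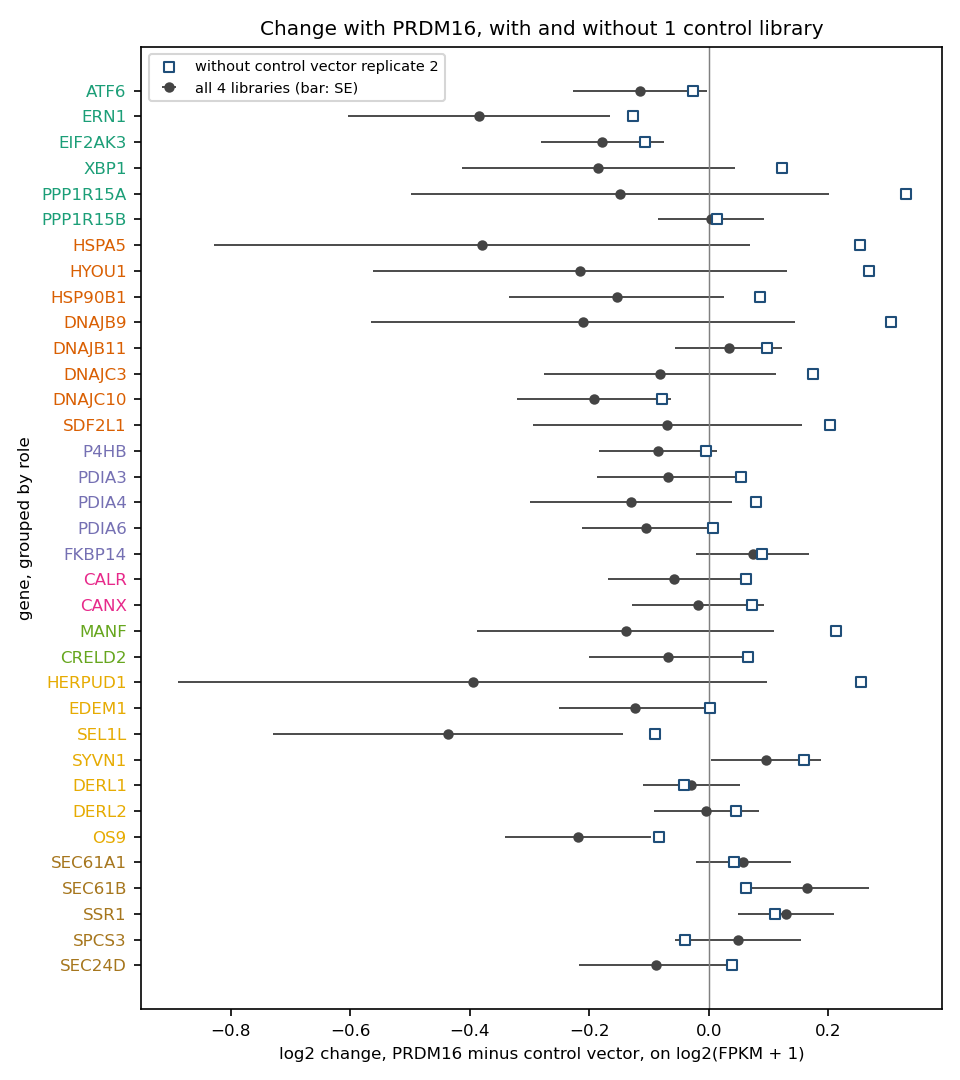
Log2 change of each tested member, PRDM16 minus control vector on log2(FPKM + 1) (horizontal axis), for genes grouped by role (vertical axis). Filled circles with bars of 1 SE use all 4 libraries and open squares leave out control vector replicate 2; many circles left of 0 have their square right of 0.

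Within each group, the 2 libraries differed in an order shared by most members. Control vector replicate 2 was the highest of the 4 libraries for 27 of 35 members, against 33.9% of all tested loci. It was the lowest library for 4 of 35, against 38.7%. PRDM16 replicate 1 was above PRDM16 replicate 2 for 29 of 35, against 51.3%, and above control vector replicate 1 for 29 of 35, against 49.6%. Control vector replicate 2 was highest with PRDM16 replicate 1 second for 23 of 35, against 14.8% of all tested loci. This order was not among the planned results, so the contrast is a description. As the median deviation from each gene's own mean on log2(FPKM + 1), PRDM16 replicates 1 and 2 stood at 0.020 and -0.10, and control vector replicates 1 and 2 at -0.082 and 0.17. For all tested loci these medians lay between -0.013 and 0.011. In bulk RNA, a larger share of cells in one state and more RNA per cell cannot be told apart.

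**Figure D2:**
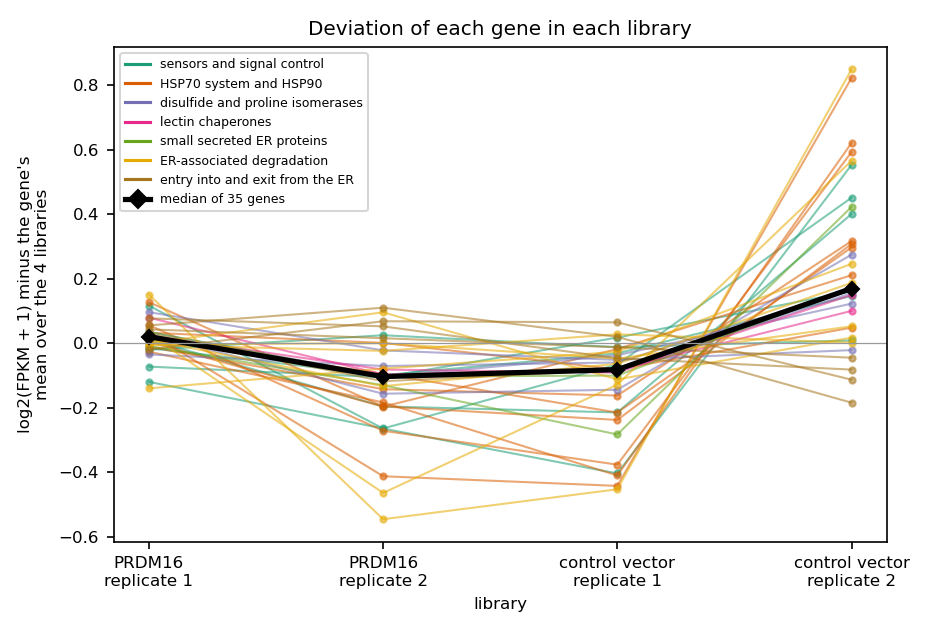
Each line is 1 of the 35 tested genes, coloured by role, and gives its log2(FPKM + 1) minus its mean over the 4 libraries (vertical axis) in each library (horizontal axis). The black median is highest in control vector replicate 2 at 0.17, next in PRDM16 replicate 1 at 0.020, and near -0.1 in the other 2 libraries.

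The sign of the median difference followed the control vector library used. PRDM16 replicate 2 was lower than control vector replicate 1 for 16 of 35 members, with a median log2 difference of 0.0096. PRDM16 replicate 1 was lower than control vector replicate 1 for 6 of 35, with a median of 0.12. Against control vector replicate 2, PRDM16 replicates 1 and 2 were lower for 30 and 29 members, with medians of -0.18 and -0.27. For all tested loci the same 4 medians lay between -0.0068 and 0.015, and the shares that were lower between 47.4% and 51.6%. These are single libraries, so the differences have no replicate check.

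Among the membrane sensors, ATF6 and EIF2AK3 differed little between libraries and ERN1 differed more. ATF6, the sensor that is cut in the Golgi to release a transcription factor, was at 9.21 and 8.63 FPKM in PRDM16 cells, against 9.09 and 10.4 FPKM in control vector cells. EIF2AK3 was at 8.83 and 8.61 FPKM with PRDM16, against 9.46 and 10.6 FPKM in the control vector, so both PRDM16 values lay below both control values. The log2 change of EIF2AK3 was -0.18 (SE 0.10, limma adjusted p = 0.689). ERN1, whose kinase and nuclease splices XBP1 mRNA, was the lowest tested member, at 1.93 and 1.65 FPKM with PRDM16, against 2.04 and 3.35 FPKM in the control vector. Its groups did not overlap either, and its log2 change of -0.38 (SE 0.22, limma adjusted p = 0.689) was -0.13 when control vector replicate 2 was left out.

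Downstream of the sensors, XBP1 and PPP1R15A differed between libraries and PPP1R15B did so little. XBP1, read here as the sum of its spliced and unspliced forms, was at 101 and 87.8 FPKM with PRDM16, against 86.6 and 133 FPKM in the control vector. PPP1R15A (GADD34), the stress-induced subunit that directs a phosphatase to eIF2 alpha, was at 59.1 and 45.2 FPKM with PRDM16, against 40.9 and 80.4 FPKM. For both genes, control vector replicate 2 was highest, PRDM16 replicate 1 second and control vector replicate 1 lowest. PPP1R15B, the constitutive counterpart of PPP1R15A, was level in all 4 libraries, at 13.5 and 14.0 FPKM with PRDM16 and 13.6 and 13.8 FPKM in the control vector.

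All 8 members of the HSP70 and HSP90 group had control vector replicate 2 highest and PRDM16 replicate 1 second, their median log2 difference being 0.53 within the control vector group and 0.18 within the PRDM16 group. HSPA5 was at 376 and 276 FPKM with PRDM16, against 270.2 and 650.4 FPKM in the control vector. It averaged 326 ± 70.9 FPKM in PRDM16 cells and 460.3 ± 269 FPKM in control vector cells (SD, n = 2 each). The log2 change of HSPA5 came to -0.38 (SE 0.45, limma adjusted p = 0.765), and to 0.25 once control vector replicate 2 was left out. The control range of HSPA5 thus enclosed both PRDM16 values. HSPA5 lies on chromosome 9 at 125234853 to 125241330 (hg38, minus strand).

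HYOU1, a large HSP70 relative that exchanges nucleotide on BiP, was at 128 and 101 FPKM with PRDM16, against 94.2 and 185 FPKM in the control vector. DNAJB9 (ERdj4), a J-domain partner of BiP and an established target of XBP1, was at 11.0 and 9.79 FPKM with PRDM16, against 8.22 and 17.8 FPKM. In DNAJB9 the libraries differed 2.17-fold within the control vector group and 1.13-fold within the PRDM16 group. DNAJC3 (p58IPK), another J-domain partner, was at 12.8 and 11.8 FPKM with PRDM16, against 10.8 and 15.8 FPKM. SDF2L1, which binds J-domain proteins in the ER, was at 60.6 and 48.2 FPKM with PRDM16, against 46.8 and 68.8 FPKM.

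DNAJB11 (ERdj3) was the steadiest of the J-domain partners, at 197 and 193 FPKM with PRDM16, against 182 and 199.6 FPKM in the control vector. HSP90B1 (GRP94), the HSP90 of the ER, was at 320.4 and 292 FPKM with PRDM16, against 288 and 402 FPKM, in a locus that also names MIR3652. DNAJC10 (ERdj5), a J-domain reductase, was at 74.7 and 64.9 FPKM with PRDM16, against 73.5 and 86.3 FPKM, in a locus that also names the pseudogene RPL31P15. In these and the other loci of several names a value cannot be split between the genes.

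**Figure D3:**
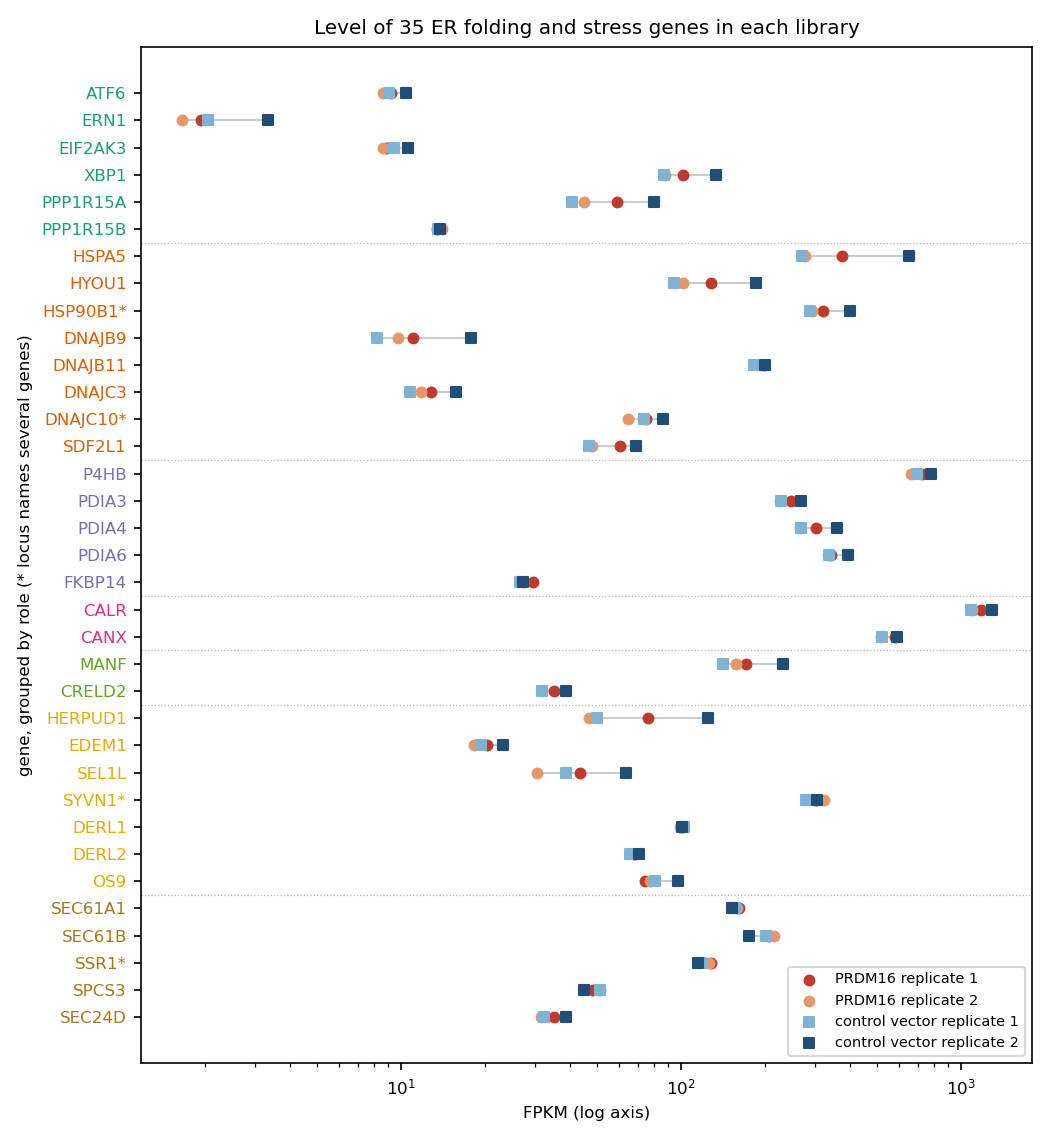
FPKM on a log axis (horizontal) of the 35 tested genes, grouped by role (vertical axis), in PRDM16 (circles) and control vector (squares) libraries, with a grey line over each gene's range. For HSPA5 the control vector values of 270.2 and 650.4 FPKM enclose the PRDM16 values of 376 and 276 FPKM, and for DERL1 all 4 values lie close together.

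The folding enzymes and lectins had median log2 differences of 0.23 and 0.21 between control vector libraries, against 0.53 for the HSP70 and HSP90 group. CALR (calreticulin), a lectin chaperone and calcium store, was the most abundant member, at 1177 and 1094 FPKM with PRDM16, against 1086 and 1284 FPKM in the control vector. CANX (calnexin), its membrane-bound relative, was at 582 and 515 FPKM with PRDM16, against 521 and 591 FPKM. P4HB, the archetypal protein disulfide isomerase, was at 725 and 664 FPKM with PRDM16, against 696 and 778 FPKM. In each of these genes the PRDM16 and control ranges overlapped, and log2 changes lay between -0.085 and -0.018. The loci of 17 of the 36 members lay above the 90th percentile of level among tested loci, among them the loci of several names that hold HSP90B1, SSR1 and SYVN1.

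The other disulfide isomerases gave the same order on a small scale. PDIA4 was at 302 and 266 FPKM with PRDM16, against 268 and 359 FPKM in the control vector. PDIA3, which works with the lectin chaperones on glycoproteins, was at 247 and 225 FPKM with PRDM16, against 227 and 269 FPKM. PDIA6 was at 344 and 335 FPKM with PRDM16, against 338 and 395 FPKM. In all of them control vector replicate 2 was highest, by 1.17 to 1.34 times control vector replicate 1. FKBP14, a prolyl isomerase that acts on procollagen, did not show this order, at 29.6 and 27.2 FPKM with PRDM16, against 26.6 and 27.2 FPKM. MANF, a small secreted protein induced by ER stress, was at 171 and 157 FPKM with PRDM16, against 141 and 230.4 FPKM, and CRELD2, its stress-induced companion, at 35.2 and 31.9 FPKM, against 32.0 and 38.8 FPKM.

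In ER-associated degradation, HERPUD1 and SEL1L spread widely between libraries and the derlins little. HERPUD1, a scaffold of the degradation complex, had the widest gap between control libraries, 2.49-fold, and between PRDM16 libraries, 1.63-fold. It was at 76.4 and 46.8 FPKM with PRDM16, against 49.97 and 125 FPKM in the control vector. The log2 change of HERPUD1 came to -0.40 (SE 0.49, limma adjusted p = 0.779), and to 0.26 once that library was left out. SEL1L, the adaptor of the ligase HRD1, was at 43.4 and 30.6 FPKM with PRDM16, against 38.9 and 63.5 FPKM. Its log2 change of -0.44 (SE 0.29, limma adjusted p = 0.689) was -0.090 without control vector replicate 2. EDEM1, a mannosidase-like protein that marks glycoproteins for disposal, was at 20.3 and 18.3 FPKM with PRDM16, against 19.2 and 23.1 FPKM.

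The derlins, which form part of the exit channel, were level. DERL1 was at 100.4 and 99.1 FPKM with PRDM16, against 103 and 101 FPKM in the control vector, so the groups did not overlap although the log2 change was -0.029 (SE 0.081, limma adjusted p = 0.909). DERL2 was at 67.9 and 68.0 FPKM with PRDM16, against 65.8 and 70.6 FPKM. OS9, a lectin that passes glycoproteins to the ligase, was at 74.5 and 77.8 FPKM with PRDM16, against 80.7 and 97.6 FPKM, again without overlap (log2 change -0.22, SE 0.12, limma adjusted p = 0.689). SYVN1, the ligase HRD1 itself, was measured only in a locus with MIR6751 and the ribosomal fusion gene FAU, at 302 and 323 FPKM with PRDM16 and 280 and 306 FPKM in the control vector, so its own level is not known.

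The 4 genes of protein entry into the ER had slightly higher means with PRDM16, and none passed the test. SEC61B, a subunit of the translocation channel, was at 207 and 215 FPKM with PRDM16, against 202 and 175 FPKM in the control vector. SEC61A1, the channel's pore, was at 161 and 158 FPKM with PRDM16, against 155 and 152 FPKM. SSR1, a subunit of the translocon-associated complex in a locus that also names CAGE1, was at 128 and 126 FPKM with PRDM16, against 117 and 115 FPKM. These are the 3 members, 8.6% of the 35 where all tested loci gave 21.1%, whose PRDM16 values both lay above both control values, with log2 changes of 0.16, 0.058 and 0.13 (limma adjusted p = 0.689, 0.799 and 0.689). SPCS3, a signal peptidase subunit, overlapped between groups, at 48.3 and 51.4 FPKM with PRDM16, against 51.2 and 45.2 FPKM. After quantile normalization the log2 changes of SEC61A1 and SPCS3 were 0.0005 and -0.0047, and that of SPCS3 was -0.040 without control vector replicate 2. In all 4 of these genes control vector replicate 2 was the lowest library. SEC24D, a cargo adaptor of vesicles that leave the ER, was at 35.2 and 31.7 FPKM with PRDM16, against 32.5 and 39.0 FPKM, in the order of the chaperones.

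The libraries of each group were then compared member by member. Control vector replicate 2 was at least 1.5 times control vector replicate 1 for 9 of 35 members, against 6.08% of all tested loci. These were HERPUD1, HSPA5, DNAJB9, HYOU1, PPP1R15A, ERN1, MANF, SEL1L and XBP1. PRDM16 replicate 1 was at least 1.2 times PRDM16 replicate 2 for 6 members, against 10.3% of all tested loci, namely HERPUD1, SEL1L, HSPA5, PPP1R15A, HYOU1 and SDF2L1. Of these, 5 were on both lists, which is 5 of the 9 and 5 of the 6. The share of all tested loci on both lists was not computed and the cuts differ between groups, so this overlap is only a description. Across the 35 members the log2 difference of control vector replicate 2 from 1 and that of PRDM16 replicate 1 from 2 had a Pearson r of 0.83 and a Spearman rho of 0.81. Across all 13246 tested loci these were 0.058 and 0.36. The 2 differences come from separate libraries, but the members within each share the libraries' scaling, and the correlation is a description across genes. Its sign depends on the direction in which each difference was taken, which was not planned.

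**Figure D4:**
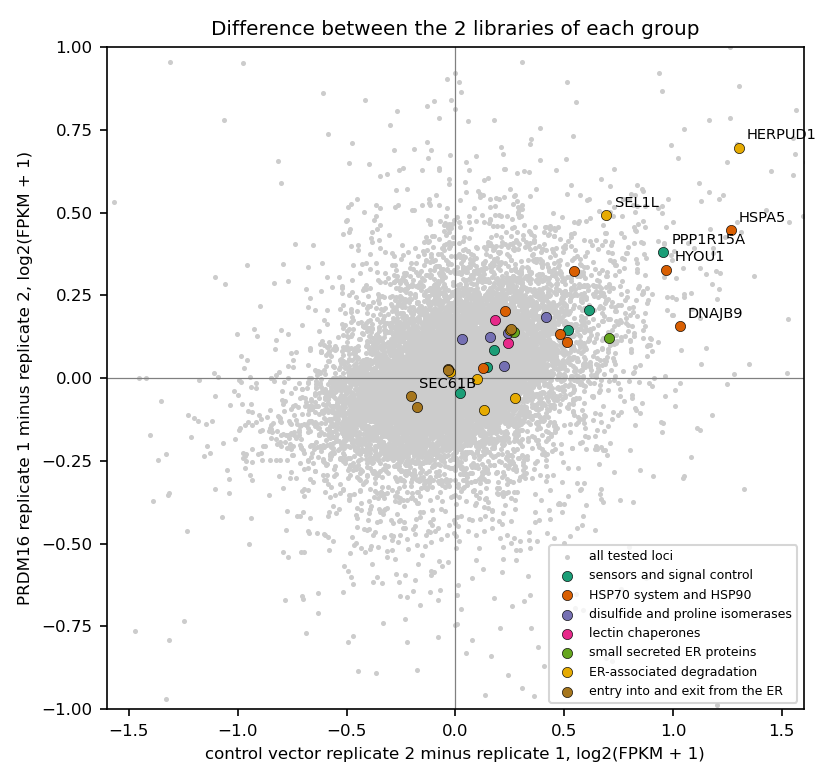
Log2(FPKM + 1) of control vector replicate 2 minus replicate 1 (horizontal axis) against PRDM16 replicate 1 minus replicate 2 (vertical axis) for the tested members, coloured by role, over all tested loci in grey, of which 221 lie outside the plotted range. HERPUD1 and HSPA5 lie farthest to the upper right, and SEC61B lies below 0 on both axes.

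The 10 members with either ER stress element shown above all had control vector replicate 2 highest and PRDM16 replicate 1 second. The 21 with a window but no match did so in 11 cases, and the 4 tested members without a window in 2. Of all tested loci, 14.8% had this order, which was not among the planned results. The median log2 difference between control vector libraries was 0.51 for the 10 with an element (range 0.18 to 1.30) and 0.18 for the 21 without (range -0.20 to 1.03). Between PRDM16 libraries the medians were 0.19 and 0.084. The ranges overlap: DNAJB9 and SEL1L have no exact match in these windows and spread widely, and CANX has one and spread little. The 21 also include the genes of protein entry into the ER. Whether the elements bear on the order was not tested.

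Most genes listed as outputs of the PERK arm showed the same order at a larger size. PERK activity was not measured, and whether PERK set these levels was not tested. All 9 genes of this list had control vector replicate 2 as the highest library, against 33.9% of all tested loci. All but VLDLR, 8 of 9, also had PRDM16 replicate 1 second, against 14.8% of all tested loci. The libraries of VLDLR differed 1.11-fold within each group. The list's median log2 difference was 0.96 between control vector libraries and 0.57 between PRDM16 libraries. VLDLR, ATF3 and TRIB3 had the smallest p. VLDLR, a lipoprotein receptor gene, was at 23.9 and 21.4 FPKM with PRDM16, against 26.0 and 28.9 FPKM in the control vector. ATF3, a stress-induced repressor, was at 9.73 and 6.23 FPKM with PRDM16, against 9.23 and 17.5 FPKM. TRIB3, a pseudokinase induced by ATF4, was at 96.0 and 72.2 FPKM with PRDM16, against 81.8 and 160.0 FPKM. DDIT3 (CHOP), the proapoptotic factor of this arm, named here after its values were seen, was at 77.3 and 38.0 FPKM with PRDM16, against 43.8 and 153 FPKM. The median log2 change of the list was -0.44 with all libraries and 0.054 without control vector replicate 2. The 2 genes still lower without that library were VLDLR and ATF3, at -0.19 and -0.22. The limma test called 0 of 9, against 0.0226% of all tested loci.

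Other genes of ER folding, degradation, transport and stress signalling, 84 in 4 lists of which 82 were tested, are given beside the members. Control vector replicate 2 was highest and PRDM16 replicate 1 second for 12 of the 82, a share of 14.6% where that of all tested loci was 14.8%. By list, this was 8 of 24 other folding genes (33.3%), 1 of 17 other degradation genes, 1 of 26 other entry and exit genes and 2 of 15 other stress signalling genes. None of the 82 was called by limma, against 0.0226% of all tested loci. Before adjustment, 2 with a higher mean in PRDM16 cells reached 0.05 (2.4%, against 2.42% of all tested loci). So did 2 with a lower mean (2.4%, against 3.7%). Among 24 other folding genes, 19 had a lower mean with PRDM16 (79.2%, against 49.3% of all tested loci), and 15 of 24 without control vector replicate 2. Of the 24, 6 lay lower in both PRDM16 libraries (25%, against 20.3%) and 3 higher in both (12.5%, against 21.1%). FKBP10, a collagen prolyl isomerase, was at 102 and 96.2 FPKM with PRDM16, against 120.2 and 132 FPKM in the control vector, a log2 change of -0.35 (SE 0.096, limma adjusted p = 0.689) that was -0.28 without control vector replicate 2. FKBP9, a related isomerase, was at 45.9 and 40.1 FPKM with PRDM16, against 52.3 and 57.7 FPKM, and SDF2, the constitutive relative of SDF2L1, was at 29.1 and 32.2 FPKM, against 27.7 and 25.7 FPKM.

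Most other genes of entry into and exit from the ER had a higher mean with PRDM16, as SEC61B did. Of 26 tested, 21 had a higher mean with PRDM16 and 5 a lower one (19.2%, against 49.3% of all tested loci). Without control vector replicate 2, 8 of 26 were lower (30.8%, against 51%). Of the 26, 15 lay higher in both PRDM16 libraries (57.7%, against 21.1%) and 2 lower in both (7.7%, against 20.3%). The median log2 change was 0.10, and 0.051 without control vector replicate 2, which was the lowest library for 17 of 26. SSR3, a further subunit of the translocon-associated complex, was at 131 and 134 FPKM with PRDM16, against 113 and 109 FPKM in the control vector (log2 change 0.26, SE 0.081, limma adjusted p = 0.689). SPCS2, of the signal peptidase, was at 13.1 and 16.5 FPKM with PRDM16, against 9.84 and 12.3 FPKM. SAR1A, the GTPase that starts vesicle coats, was at 48.5 and 55.7 FPKM with PRDM16, against 46.8 and 40.2 FPKM.

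In the 17 other degradation genes tested, 7 had a lower mean with PRDM16 (41.2%, against 49.3% of all tested loci). Of the 17, 5 lay lower and 5 higher in both PRDM16 libraries (29.4% each, against 20.3% and 21.1% of all tested loci). EDEM2, which trims glycoproteins for disposal, was at 22.7 and 21.3 FPKM with PRDM16, against 24.9 and 27.8 FPKM in the control vector. UBE2G2, a ubiquitin-conjugating enzyme of the pathway, was at 57.0 and 56.5 FPKM with PRDM16, against 51.1 and 42.7 FPKM, and FAF2, an adaptor that recruits the extraction ATPase, at 24.6 and 24.8 FPKM, against 22.6 and 20.7 FPKM. Among the 15 other stress signalling genes, 7 had a lower mean (46.7%, against 49.3% of all tested loci). Of the 15, 3 lay lower and 7 higher in both PRDM16 libraries (20% and 46.7%, against 20.3% and 21.1% of all tested loci). WFS1, an ER membrane protein, was at 22.6 and 23.0 FPKM with PRDM16, against 19.3 and 17.8 FPKM. MAP3K5, a kinase activated downstream of IRE1, was at 5.64 and 5.47 FPKM, against 4.57 and 4.62 FPKM, and MBTPS1, the first protease to cut ATF6, at 51.7 and 50.04 FPKM, against 55.9 and 59.2 FPKM.

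**Figure D5:**
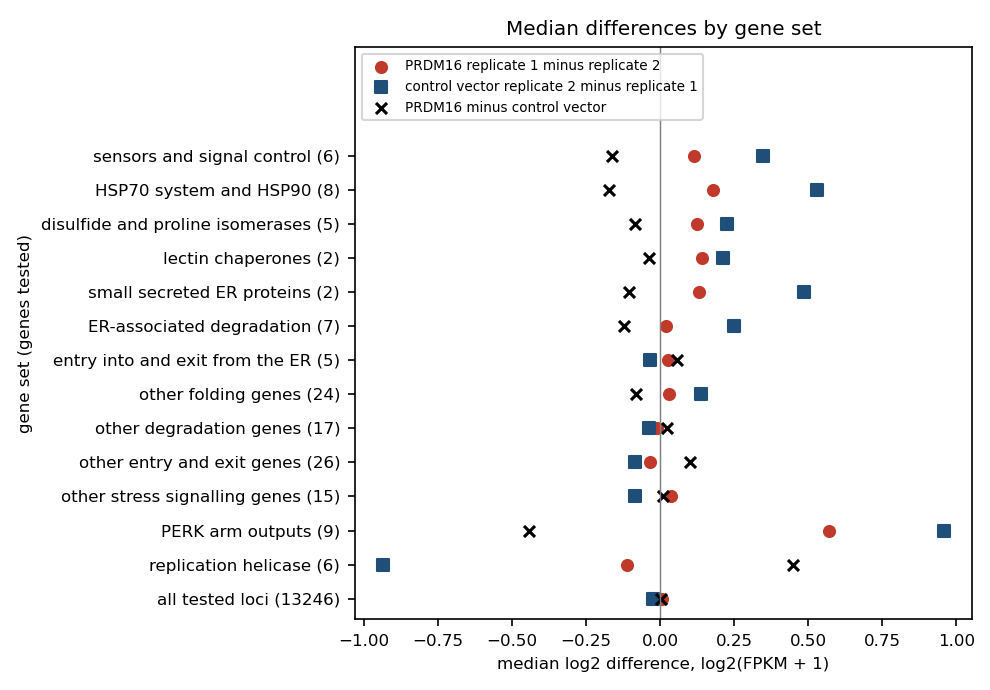
Median log2 differences on log2(FPKM + 1) (horizontal axis) for each role of the members, the other lists and all tested loci (vertical axis, genes tested in brackets). Circles give PRDM16 replicate 1 minus 2, squares control vector replicate 2 minus 1 and crosses PRDM16 minus control vector; the PERK arm outputs have the squares and circles at 0.96 and 0.57, and the replication helicase has its square at -0.94.

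The replication helicase list was given beside these results because control vector replicate 2 stood apart there too, so its values are a description. Its median log2 difference was -0.94 between control vector libraries and -0.11 between PRDM16 libraries. MCM7, MCM2 and MCM6 had the smallest p of this list. MCM7 was at 187 and 209 FPKM with PRDM16, against 195 and 107 FPKM in the control vector. MCM2 averaged 68.4 ± 1.03 FPKM with PRDM16 and 52.5 ± 23.3 FPKM in the control vector, and MCM6 35.9 ± 1.42 FPKM with PRDM16 and 27.5 ± 12.7 FPKM in the control vector (SD, n = 2 each). The part of a difference in proliferation or growth state in the levels of the members was not tested.

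Summed over the 32 members in loci naming 1 gene, the level was 5427 and 4918 FPKM in PRDM16 cells, against 4908 and 6253 FPKM in control vector cells. The sum for the 6 such members of the HSP70 and HSP90 group was 785.6 and 640.3 FPKM with PRDM16, against 613 and 1138 FPKM. For the 4 such genes of entry and exit it was 451 and 456 FPKM with PRDM16, against 440.5 and 411 FPKM, which lacks the high value of control vector replicate 2.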

How the data were processed

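RNA-seq of 786-O cells was deposited as 1 table of 56753 loci by 4 libraries. The submitters' processing notes name the tools Cufflinks 2.2.1, Cuffdiff, TopHat2 2.1.0 and Trim Galore and the build hg38. For the annotation, filters, scaling and strand use, a statement is not given in the sources used here. No unit stands in the deposited header. The authors' values were taken as FPKM from the tools and from sums of 556213 to 574003 per library, which fit neither counts nor TPM. Depth is unknown, so no counting interval is given. Because strand use is not given, antisense reads cannot be set apart.

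Loci with a mean of at least 1 FPKM were fitted in R 4.3.3 with limma 3.58.1 (log2(FPKM + 1), variance trend, two-sided). Changes of low genes come out too small on this scale. For 2 against 2 libraries an exact two-sided permutation test cannot go below p = 0.333, so model p-values are given. The fit was checked on simulated data. Coordinates are from GENCODE 29 (GRCh38) and promoters from RefSeq (GRCh38.p14). Tables used Python 3.11.15 and pandas 2.3.3, and plots matplotlib 3.10.9.

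The members, lists and tests were chosen with earlier results of these data known. All members were named, and from each other list the 3 tested genes with the smallest p. List genes under an older symbol were matched through RefSeq synonyms, and loci naming several genes were kept. Alternatives covered the pseudocount, filter, scaling, variance trend, replicate block and each library left out. Protein sequences were not used here.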

Additional observations from a re-analysis of the deposited data

How the results depend on the processing

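No member was called by limma in any setting run (0 of the tested members each time; lowest adjusted p 0.129, without control vector replicate 1). The number of loci called over the whole table was 3, and 5 with a pseudocount of 0.1, 1 without a filter, 6 without a variance trend, and 16 to 39 with 1 library left out. With a replicate block it was 5, and 5 with the pairing crossed, an alternative added after seeing the data. The shared replicate numbers are not stated to mark a shared culture, and same-numbered libraries deviated with a Pearson r of -0.058 over all tested loci. The count of members lower with PRDM16, 27, ran from 9 (without control vector replicate 2) to 29 with 1 library left out, and was 16 when control vector replicate 2 and PRDM16 replicate 1 were both left out, chosen after seeing the data, which leaves 1 library a group and no test. The median change of the members, -0.089, ran from -0.22 to 0.063 with 1 library left out. In loci naming a single gene, 25 of 31 members were lower. The log2 change of PRDM16 ran from 9.91 to 10.19 with 1 library left out, and was 9.85 after quantile normalization and 12.56 with a pseudocount of 0.1, since its control level is near 0. With 1 library left out the lone library of a group is assumed to vary like the other group.

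Quantile normalization turned DNAJB11 to -0.0060, CANX to 0.021 and SPCS3 to -0.0047; the cause was not tested. Leaving out 1 library turned the sign of 22 members, 20 of them without control vector replicate 2. Their log2 changes ran from -1.05 to 0.26 for HERPUD1, -1.01 to 0.25 for HSPA5, -0.73 to 0.30 for DNAJB9, -0.70 to 0.27 for HYOU1, -0.63 to 0.33 for PPP1R15A, -0.49 to 0.12 for XBP1, -0.49 to 0.21 for MANF, -0.39 to 0.086 for HSP90B1, -0.34 to 0.080 for PDIA4, -0.34 to 0.20 for SDF2L1, -0.34 to 0.17 for DNAJC3, -0.25 to 0.0025 for EDEM1, -0.22 to 0.039 for SEC24D, -0.22 to 0.0071 for PDIA6, -0.20 to 0.066 for CRELD2, -0.19 to 0.054 for PDIA3, -0.18 to 0.062 for CALR, -0.11 to 0.073 for CANX, -0.054 to 0.046 for DERL2, -0.040 to 0.14 for SPCS3, -0.031 to 0.098 for DNAJB11 and -0.019 to 0.026 for PPP1R15B.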
